A study of Mus musculus with 4 samples.

Results

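The genes described here are the 3 HIF-α subunit genes (Hif1a, Epas1, Hif3a), the 2 genes of their ARNT partners (Arnt, Arnt2), Vhl, and the 4 genes of the oxygen-sensing hydroxylases (Egln1, Egln2, Egln3, Hif1an). They were chosen by name, as the rows of the count table whose Entrez identifiers map to these symbols. All 10 were found among 24415 rows. RNA was sequenced from bone marrow cells taken with magnetic beads against CD117, the KIT receptor of hematopoietic stem and progenitor cells. There were 2 libraries of wild-type mice and 2 of mice with inducible HIF-1α, described by the submitters as a constitutively active form of the protein. Both groups share the background C57BL/6, 129X1/SvJ. Age, time after induction, the promoter or Cre that drives the induction, the alleles carried by the controls and the species of the induced sequence are not stated in the labels. Nor do the labels tie libraries to single mice. The spread behind each p-value is therefore that of libraries and may be technical.

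HIF is a heterodimer of an oxygen-regulated α subunit and a stable β subunit, ARNT or ARNT2. In oxygen, the prolyl hydroxylases encoded by Egln1, Egln2 and Egln3 (PHD2, PHD1 and PHD3) modify prolines of the α subunit, which is then bound by VHL, ubiquitinated and degraded. The asparaginyl hydroxylase FIH, encoded by Hif1an, blocks binding of coactivators to the α subunit. This control acts on the protein, so transcript levels do not report it. Egln1 and Egln3 are themselves HIF target genes, which makes them a feedback arm of the pathway. In bone marrow, HIF-1α is known for its part in the metabolism and quiescence of stem cells.

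HIF-1 and HIF-2 bind DNA at a core of 5 letters, ACGTG, in which G may also stand first. The promoter windows of Hif3a, the gene with the largest genotype difference here, and of the feedback genes Egln1 and Egln3 are shown so that this core can be seen beside the values that follow. Each runs 5′ to 3′ on the gene's strand, from 250 bases before to 50 bases after the RefSeq start (GRCm38.p6). They are chr7:17062378-17062677 (minus strand) for Hif3a, chr8:124949205-124949504 (minus strand) for Egln1 and chr12:54203825-54204124 (minus strand) for Egln3. Capitals mark the core, with either first letter, read on the printed strand or as the reverse complement on the other.
Hif3a: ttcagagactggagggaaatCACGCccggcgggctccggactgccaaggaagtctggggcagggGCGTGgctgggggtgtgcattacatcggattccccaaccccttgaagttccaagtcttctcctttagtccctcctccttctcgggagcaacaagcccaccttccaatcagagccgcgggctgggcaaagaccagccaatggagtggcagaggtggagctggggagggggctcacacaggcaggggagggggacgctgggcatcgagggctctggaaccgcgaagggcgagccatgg
Egln1: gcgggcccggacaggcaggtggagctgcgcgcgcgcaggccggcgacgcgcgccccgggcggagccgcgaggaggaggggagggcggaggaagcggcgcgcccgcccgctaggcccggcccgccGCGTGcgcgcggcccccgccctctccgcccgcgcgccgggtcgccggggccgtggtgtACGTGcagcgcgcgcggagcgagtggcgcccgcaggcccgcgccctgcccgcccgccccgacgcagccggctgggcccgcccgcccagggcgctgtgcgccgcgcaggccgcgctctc
Egln3: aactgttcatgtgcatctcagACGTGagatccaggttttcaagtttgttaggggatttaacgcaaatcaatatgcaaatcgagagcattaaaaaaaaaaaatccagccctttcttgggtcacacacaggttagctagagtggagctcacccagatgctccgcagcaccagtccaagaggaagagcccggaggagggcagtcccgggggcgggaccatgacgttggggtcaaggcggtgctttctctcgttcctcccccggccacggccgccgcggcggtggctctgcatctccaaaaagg

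The Hif3a window held 2 cores, first letters at -230 and -186 from the start. The Egln1 window held 2, at -126 and -68, and the Egln3 window held 1, at -229. Of the 9 genes with a window in the RefSeq table, 6 held at least 1 core (Hif1a, Hif3a, Arnt, Egln1, Egln2 and Egln3) and 3 held none (Arnt2, Vhl and Hif1an). The palindrome CACGTG, in which both strands read the core, was counted once. Egln2 had another window as well, also with a core. The windows of Hif1a (chr12:73907617-73907916) and Arnt2 (chr7:84409989-84410288) lay inside the loci of these genes. Counted per window and not per gene, the core was found in 43.8% of all 32851 RefSeq windows, which cover 27025 genes. The share rose with base composition, from 50.5% of windows with 50 to under 65% GC to 71.7% of those with at least 65% GC. The windows had 63.7% GC at Hif3a, 54.7% at Egln3 and 86.0% at Egln1. A match is a description of these letters, and binding was not measured.

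Library totals ranged from 22221798 to 27539149 counts, and a count of 0 allows up to 3 counts, or 0.112 to 0.138 CPM (counts scaled to TMM library sizes), counting error only. All 14 stem and progenitor markers, Kit and Cd34 among them, were detected in all 4 libraries, with summed levels of 1219 to 1483 CPM. Markers of B cells, macrophages, neutrophils and erythroid cells were detected as well, so no level belongs to progenitors alone. The biological coefficient of variation was 33.4% within the inducible HIF-1α pair and 15.1% within the wild-type pair.

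Among the 9 genes tested, Hif3a showed the largest genotype difference, followed at a distance by Vhl, Epas1 and Hif1a, and the 4 hydroxylase genes showed the smallest. Hif3a was 4.84-fold higher in inducible HIF-1α, while Egln1, Egln2 and Hif1an had fold changes of at most 1.04. No gene passed the threshold, an adjusted p of 0.05 over all 14043 genes tested by edgeR's quasi-likelihood test. Of the 9 tested, only Hif3a had an unadjusted p under 0.05. Over all genes 1.12% were called and 16.9% had an unadjusted p under 0.05. DESeq2 called 1 of the 9, Hif3a, with 6.91% of all genes called, and limma-voom none (2 at an unadjusted p under 0.05). Arnt2 did not pass the filter on low counts. Over the 9 genes the median log2 fold change was 0.0035, beside 0.0010 over all genes tested. The libraries of the genotypes did not overlap for 4 of the 9 (Hif3a and Arnt higher, Hif1a and Vhl lower), and 52.7% of all tested genes were separated in the same way.

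**Figure D1:**
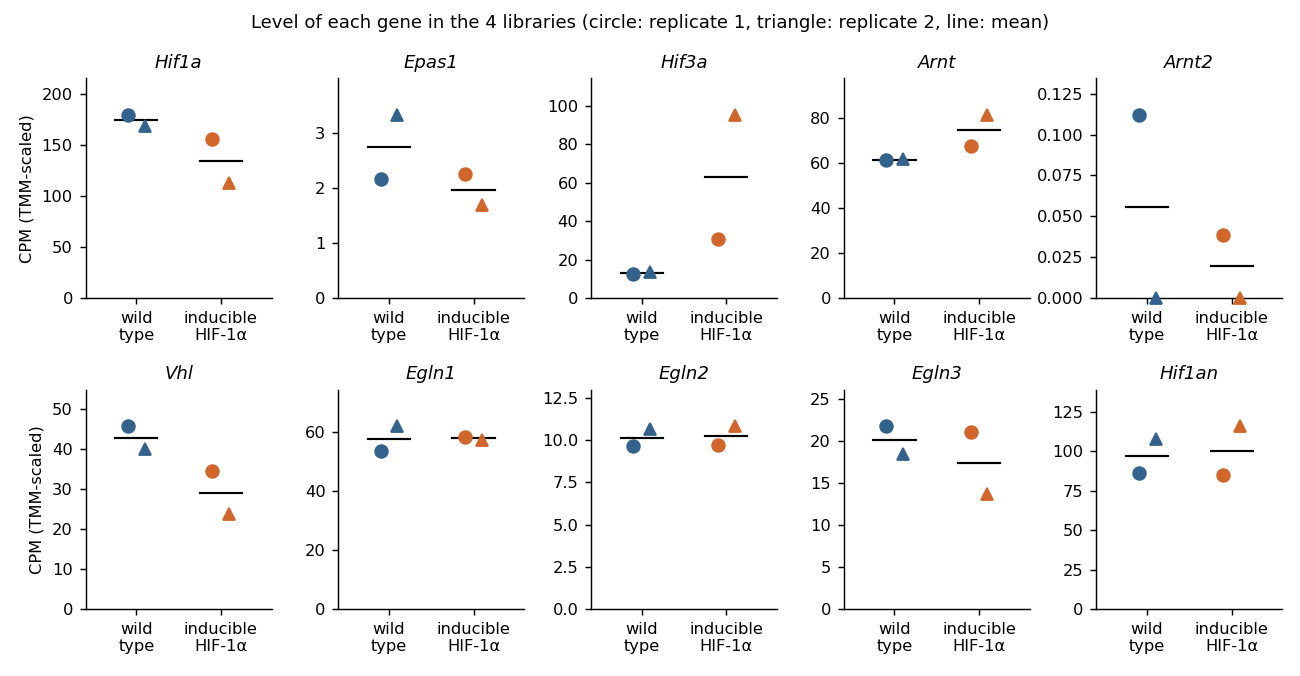
Level of each gene in CPM (y axes start at 0 and differ between panels) in 2 wild-type and 2 inducible HIF-1α libraries; circles are replicate 1, triangles replicate 2 and lines group means. Hif3a reached 30.6 and 95.2 CPM in the inducible HIF-1α libraries, above both wild-type libraries at 12.4 and 13.6 CPM, while the points of all 4 hydroxylase genes overlap.

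Hif1a (Entrez 15251; chromosome 12, 73901324 to 73947554, plus strand, GRCm38) encodes the subunit induced in this model. Its level was 179.0 and 168.4 CPM in the wild-type libraries and 155.2 and 112.7 CPM in the inducible HIF-1α libraries. Both inducible HIF-1α libraries were below both wild-type libraries, and replicate 2 was the lowest of the 4. The log2 fold change was -0.38 ± 0.21 (SE; 95% interval -0.88 to 0.13) and was not called by edgeR's quasi-likelihood test (adjusted p = 0.426). Without inducible HIF-1α replicate 1 it was -0.63 and called lower (adjusted p = 0.00376). In that fit 19.7% of all genes were called lower. With replicate 1 kept and replicate 2 left out, the value was -0.13 (adjusted p = 0.758). It stayed negative under all alternatives, with adjusted p-values of 0.00376 to 0.985. Whether the row of the mouse gene also counts reads of the induced transcript is not stated, so the level does not check the induction.

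Most markers of neutrophils, monocytes and macrophages, and B cells were lower in the same libraries. The summed level of 13 neutrophil markers was 22340 and 20916 CPM in wild type and 16490 and 7224 CPM in inducible HIF-1α. For 14 monocyte and macrophage markers it was 1678 and 1691 CPM against 1108 and 470 CPM, and for 10 B cell markers 428 and 398 CPM against 15.7 and 4.30 CPM. In this order of lists, 9, 13 and 10 markers were below both wild-type libraries in each inducible HIF-1α library. Of all tested genes, 52.7% were separated either way. edgeR called 3, 7 and 8 of the markers lower, beside 1.12% of all genes called. Elane, Prtn3 and Ly6c2 were highest in inducible HIF-1α replicate 1. No neutrophil or macrophage marker was at 0 over either group, and 1 B cell marker, Pax5, was at 0 in both inducible HIF-1α libraries. Their part in the lower Hif1a and Vhl levels was not tested. In bulk RNA, fewer cells of a type and less RNA per cell cannot be told apart.

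Hif3a (Entrez 53417; chromosome 7, 17030993 to 17062427, minus strand) encodes the third α subunit, whose splice forms include IPAS, an inhibitory form that sequesters HIF-1α in mouse. Its counts were 333 and 294 in wild type and 789 and 2543 in inducible HIF-1α. On the CPM scale the libraries stood at 12.4 and 13.6 against 30.6 and 95.2. Both inducible HIF-1α libraries were above both wild-type libraries, and they were also far apart from each other. Replicate 2 exceeded replicate 1 by 1.64 on the log2 scale, beside 0.13 between the wild-type libraries. Gene-level counts do not separate the splice forms.

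The log2 fold change of Hif3a was 2.27 ± 0.50 (SE; 95% interval for this gene alone 1.08 to 3.47). It did not pass edgeR's quasi-likelihood test over all genes (adjusted p = 0.100), where 2.92% of tested genes had a smaller p. It was positive under each of the 12 alternatives, from 1.27 to 2.87. DESeq2 called it (adjusted p = 5.73e-05), and so did the edgeR fit without the filter on low counts (adjusted p = 0.00343, with 4.22% of genes called). Under 3 other scalings or a filter of 1 CPM in every library, edgeR did not call it (adjusted p = 0.102 to 0.131). Limma-voom did not call it either (adjusted p = 0.125). Its size depended on the inducible HIF-1α library used. Leaving out inducible HIF-1α replicate 2 gave 1.27 (adjusted p = 2.61e-06, 3.84% of genes called higher), and leaving out replicate 1 gave 2.87 (adjusted p = 2.29e-41, 12.4% of genes called higher). Without wild-type replicate 1 or 2 it was 2.22 and 2.34, in fits that called almost no gene of the whole table. These fits with 1 library in a group assume that the lone library varies like the others.

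Erythroid markers were highest in sum in the library with the highest Hif3a level, inducible HIF-1α replicate 2, and their sum in replicate 1 depended on the genes included. The 12 erythroid markers other than globins summed to 4556 and 4892 CPM in wild type and to 5413 and 10710 CPM in inducible HIF-1α. Without Tfrc, a split made after the values were seen, the other 11 summed to 3894 and 4370 CPM against 3151 and 7541 CPM. With the 4 globin rows included the sums were 13548 and 14002 CPM against 7159 and 14554 CPM. None of the 16 was at 0 in any library. Among them the transferrin receptor gene Tfrc rose and the α-globin rows Hba-a1 and Hba-a2, which hold identical counts, fell. Gata1, encoding the master regulator of erythroid transcription, stood at 101.0 and 76.9 CPM in wild type and 106.8 and 224.2 CPM in inducible HIF-1α (log2 fold change 0.90, not called). Of the 16 markers, 6 stood above both wild-type libraries in each inducible HIF-1α library, and 7 stood below. Of all tested genes, 52.7% were separated in the same way, in either direction. Besides Tfrc and Gata1, those above were Klf1, Ermap, Car1 and Rhag, each highest in replicate 2 and none called. Ermap stood at 376.8 and 389.4 CPM in wild type and 437.7 and 1036 CPM in inducible HIF-1α. Rhag stood at 165.5 and 142.8 CPM against 197.6 and 546.0 CPM. Slc4a1, Alas2 and Epb42, genes of the red cell membrane and of heme synthesis, were among those below (log2 fold changes -0.98, -1.50 and -0.90, none called). The 4 globin rows were the others below. The part of these markers in the Hif3a difference was not tested.

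Epas1 (Entrez 13819; chromosome 17, 86753864 to 86833410, plus strand) encodes HIF-2α, the α subunit known for its expression in endothelial cells. Its level was near the bottom of the set, with 58 and 72 counts in wild type and 58 and 45 in inducible HIF-1α. These were 2.16 and 3.32 CPM against 2.25 and 1.68 CPM, and the groups overlapped. The log2 fold change of -0.48 ± 0.50 (SE; 95% interval -1.66 to 0.71) was not called, and the interval leaves room for a more than 2-fold decrease. It was -0.74 without wild-type replicate 1 and -0.14 without wild-type replicate 2, and was called under no alternative. The 12 endothelial markers summed to 97.1 and 112.4 CPM in wild type and 108.2 and 105.6 CPM in inducible HIF-1α. That sum covers markers with opposed differences. Of the 10 tested, 3 stood above both wild-type libraries in each inducible HIF-1α library (Tek, Emcn and Eng). Another 5 stood below (Cdh5, Pecam1, Stab2, Flt1 and Tie1), and none was called. Over all tested genes, 52.7% were separated either way.

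The makeup of the α subunit transcripts differed between libraries through Hif3a and Hif1a. Levels were divided by exon length (the union of GENCODE M21 exons) before comparing genes. Of the summed CPM per kb of the 3 genes, Hif1a made up 93.1% and 91.6% in wild type, and 84.1% and 56.9% in inducible HIF-1α. Hif3a made up 5.68% and 6.49% in wild type, and 14.6% and 42.2% in inducible HIF-1α. Epas1 stayed between 0.897% and 1.91%. The mean Hif3a share was 6.08% ± 0.57 in wild type and 28.4% ± 19.6 in inducible HIF-1α (SD, n = 2 each). The groups did not overlap, and an exact permutation test of 2 against 2 cannot give a two-sided p below 0.333, so no test of the share was made.

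**Figure D2:**
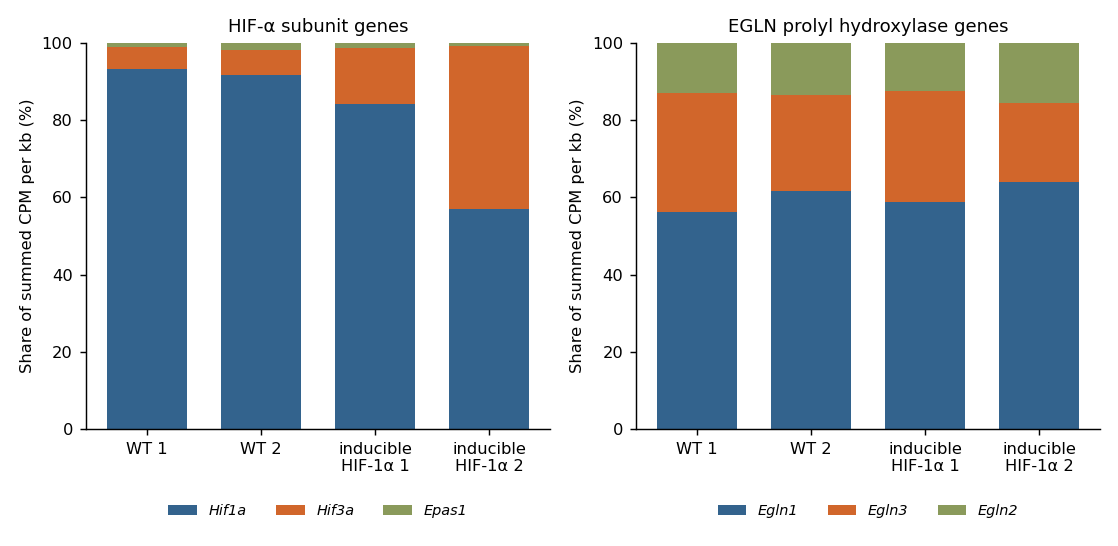
Share of each gene in the summed CPM per kb of the 3 HIF-α subunit genes (left) and of the 3 EGLN prolyl hydroxylase genes (right), in percent, 1 stacked bar per library (WT, wild type). The Hif3a share was 42.2% in inducible HIF-1α replicate 2 and 14.6% in replicate 1, above 6.49% and 5.68% in wild type; the Egln1 share lay between 56.2% and 63.9% in all 4 libraries.

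Arnt (Entrez 11863; chromosome 3, 95434367 to 95497240, plus strand) encodes HIF-1β, the obligate partner of the α subunits and also of the aryl hydrocarbon receptor. It stood at 61.1 and 61.7 CPM in wild type and 67.5 and 81.2 CPM in inducible HIF-1α. Both inducible HIF-1α libraries were higher, by a log2 fold change of 0.28 ± 0.19 (SE; 95% interval -0.18 to 0.73), which edgeR's quasi-likelihood test did not call (adjusted p = 0.509). The value was positive under all 12 alternatives, from 0.17 to 0.40, and called under none. Arnt2, the paralog known from neural tissue, had 3 and 0 counts in wild type and 1 and 0 in inducible HIF-1α. The ratio of summed counts was 0.307 (exact 95% interval 0.00586 to 3.83, counting error only), and a difference was not detectable at this depth.

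Vhl (Entrez 22346; chromosome 6, 113623994 to 113631634, plus strand) encodes the substrate receptor of the ubiquitin ligase that removes hydroxylated HIF-α. Its level was 45.7 and 40.1 CPM in wild type and 34.5 and 23.9 CPM in inducible HIF-1α. Both inducible HIF-1α libraries were lower, and replicate 2 was again the lowest, as for Hif1a. The log2 fold change was -0.56 ± 0.25 (SE; 95% interval -1.15 to 0.03) and was not called by edgeR's quasi-likelihood test (adjusted p = 0.319). Without inducible HIF-1α replicate 1 it was -0.85, and without replicate 2 it was -0.28. As for Hif1a, those fits take their spread from the wild-type pair alone. Vhl was called under no alternative that kept all 4 libraries.

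None of the 4 hydroxylase genes, which lie on chromosomes 8 (Egln1), 7 (Egln2), 12 (Egln3) and 19 (Hif1an), separated the genotypes. Egln1, the main HIF prolyl hydroxylase in most tissues, stood at 53.6 and 61.9 CPM in wild type and 58.4 and 57.3 CPM in inducible HIF-1α. The inducible HIF-1α libraries lay between the wild-type libraries. Its log2 fold change was 0.0035 ± 0.19 (SE; 95% interval -0.45 to 0.45). Egln2 stood at 9.63 and 10.7 CPM against 9.68 and 10.8 CPM, with a log2 fold change of 0.015 ± 0.27 (SE; 95% interval -0.62 to 0.65). For both genes the difference was smaller than that between the wild-type libraries, and the intervals give the range of change these libraries allow.

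Egln3, which encodes the strongly hypoxia-inducible PHD3, stood at 21.8 and 18.5 CPM in wild type and 21.0 and 13.7 CPM in inducible HIF-1α. Replicate 2 of inducible HIF-1α was the lowest, and replicate 1 lay between the wild-type libraries. The log2 fold change was -0.21 ± 0.28 (SE; 95% interval -0.89 to 0.46), and it was 0.098 without inducible HIF-1α replicate 2. Hif1an stood at 86.1 and 107.6 CPM in wild type and 85.1 and 115.7 CPM in inducible HIF-1α. Each genotype had 1 library near 86 and 1 above 107 CPM, and the log2 fold change was 0.052 ± 0.23 (SE; 95% interval -0.49 to 0.59). Neither gene was called by edgeR's quasi-likelihood test (adjusted p = 0.740 and 0.928).

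**Figure D3:**
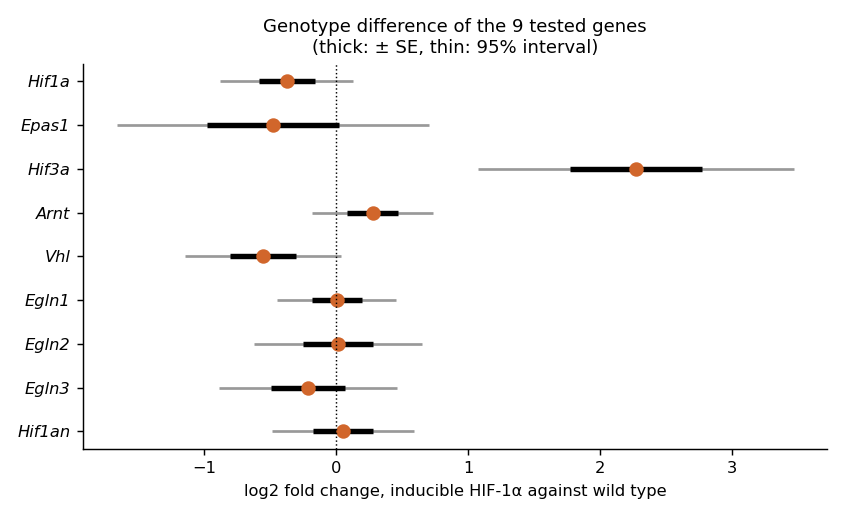
Log2 fold change of inducible HIF-1α against wild type for the 9 tested genes (points), with the standard error (thick lines) and 95% interval of each gene alone (thin lines). The interval of Hif3a, 1.08 to 3.47, is the only one that does not include 0, and Hif3a did not pass after adjustment over all genes.

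Among the EGLN genes Egln1 held the largest share of CPM per kb, 56.2% and 61.5% in wild type and 58.9% and 63.9% in inducible HIF-1α. Egln3 held 30.8% and 24.9% in wild type and 28.6% and 20.6% in inducible HIF-1α. The Egln2 share was between 12.5% and 15.5% in all 4 libraries. The groups overlapped for Egln1, Egln3 and Egln2.

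Ordered by mean CPM per kb in wild type, Hif1a was first at 29.5, followed by Egln1 at 16.1, Hif1an at 14.7 and Vhl at 14.3. The ranges of the last 3 overlapped, so their order is not resolved. Arnt at 7.67 and Egln3 at 7.56 overlapped as well. Below them came Egln2 at 3.62, Hif3a at 1.94, Epas1 at 0.491 and Arnt2 at 0.0073, each apart from its neighbours. In inducible HIF-1α, Hif1a was again first at 22.7. Hif3a moved from the eighth to the fifth place at 9.37, with a range of 4.56 to 14.2 that overlapped the ranges of Hif1an (mean 15.2), Vhl (9.74), Arnt (9.28) and Egln3 (6.52), so its place among them is not resolved. The remaining genes kept their order.

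**Figure D4:**
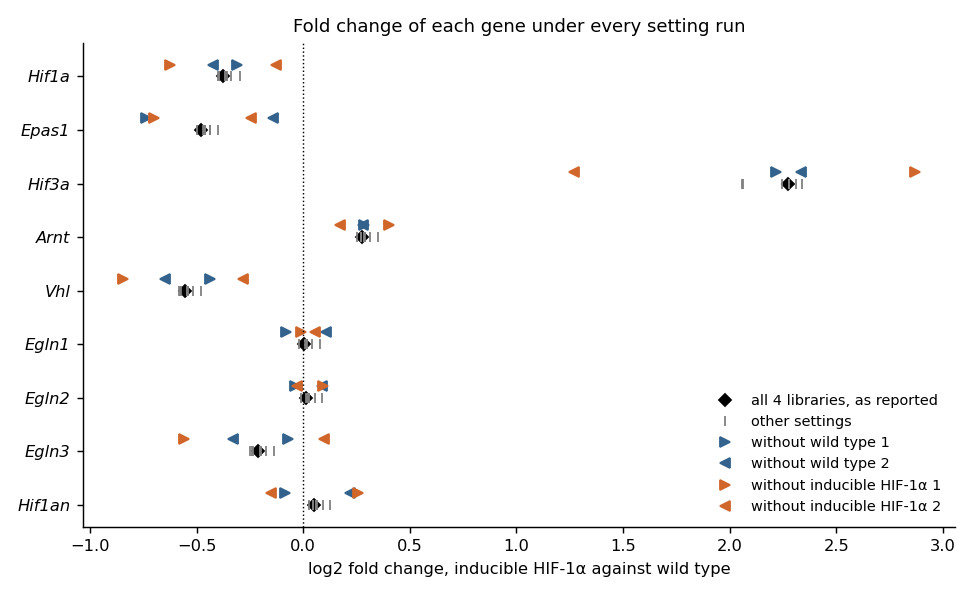
Log2 fold change of inducible HIF-1α against wild type for the 9 tested genes with all 4 libraries (black diamonds), without each library (triangles) and under the other scalings, filters, tools and the block (grey ticks). Hif3a ranged from 1.27 to 2.87 and stayed positive, Hif1a (-0.63 to -0.13) and Vhl (-0.85 to -0.28) stayed negative, and Egln1, Egln2, Egln3 and Hif1an lay on both sides of 0.

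The genes whose profile over the 4 libraries was nearest to each α subunit were found by the Euclidean distance between log2 CPM values centred on each gene's mean, with 0.5 CPM added. Nearest to Hif3a were Actn2 (distance 0.147), Gm15915 (0.195) and Fam124a (0.239). Gm15915 stood at 2.46 and 2.82 CPM in wild type and 5.66 and 19.9 CPM in inducible HIF-1α, and Actn2 had only 1 and 1 counts in wild type. Nearest to Hif1a were E430018J23Rik (0.0199), Arpc4 (0.0342) and Zfp143 (0.0465). Among the nearest to Epas1 were Sbno2 (0.0725) and Kcng1 (0.0778). Distances over 4 libraries describe these libraries alone.

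Beyond the 10 genes, 125 other genes of the pathway were listed in 6 groups by function, of which 112 were tested. Of these 4 rose and 1 fell, beside 1.12% of all genes called, and the median log2 fold change was 0.021. All 5 were HIF target genes, and no gene of the other 5 lists was called by edgeR's quasi-likelihood test.

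In the VHL ubiquitin ligase and neddylation list, none of 12 was called by edgeR, DESeq2 or limma-voom. By edgeR 3 of the 12 had an unadjusted p under 0.05, beside 16.9% of all genes. The median log2 fold change of the list was 0.18. Fem1b, encoding the receptor of another cullin-2 ligase, had the smallest p, at 170.1 and 159.4 CPM in wild type and 217.0 and 256.6 CPM in inducible HIF-1α (log2 fold change 0.52 ± 0.18, adjusted p = 0.229). The scaffold gene Cul2, named after its values were seen, had 56.2 and 44.9 CPM against 69.7 and 75.6 CPM. None of the 14 regulators of hydroxylase and VHL turnover was called by any of the 3 tools, and none had an unadjusted p under 0.05. Usp20, a deubiquitinase that binds VHL in human cells, had the smallest p (0.57 ± 0.32). None of 16 chaperones and genes of oxygen-independent turnover was called (2 at an unadjusted p under 0.05; none by the other tools). Bhlhe41, whose product promotes HIF degradation in human cells, had the smallest p, at 2.05 and 1.75 CPM against 0.504 and 0.0748 CPM (adjusted p = 0.218).

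None of 19 tested coactivators and corepressors was called by edgeR. Of the 19, 8 had an unadjusted p under 0.05, beside 16.9% of all genes. The median log2 fold change of the 19 was -0.27. Cited4, of the CITED family that binds CBP and p300, had the smallest p. It stood at 3.13 and 3.32 CPM in wild type and 6.16 and 11.2 CPM in inducible HIF-1α (log2 fold change 1.43 ± 0.40, adjusted p = 0.159 by edgeR). DESeq2 called Cited4, beside 6.91% of all genes called. Among 9 tested genes of other bHLH-PAS proteins none was called (2 at an unadjusted p under 0.05), with a median of -0.27. Arntl, the circadian partner of CLOCK, had the smallest p, at 33.6 and 31.9 CPM in wild type and 13.3 and 13.4 CPM in inducible HIF-1α. Its log2 fold change of -1.30 ± 0.21 had a p just above the threshold by edgeR's quasi-likelihood test (adjusted p = 0.0504). DESeq2 and limma-voom called Arntl lower, beside 6.91% and 1.48% of all genes called.

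Of the 44 tested HIF target genes, a list that includes Egln1 and Egln3, 4 rose and 1 fell, beside 1.12% of all genes called. Their median log2 fold change was 0.15. In each inducible HIF-1α library 20 of the 44 were above and 12 below both wild-type libraries, beside 52.7% of all genes separated either way. By edgeR's quasi-likelihood test 18 of the 44 had an unadjusted p under 0.05, beside 16.9% of all genes. Of the 42 without Egln1 and Egln3, DESeq2 called 8 higher and 4 lower (Hmox1, Slc2a3, Trf and Cp), beside 6.91% of all genes called. Limma-voom called 4 higher and 1 lower, beside 1.48% of all genes. The mitophagy receptor gene Bnip3 stood at 26.4 and 27.9 CPM in wild type and 90.7 and 94.5 CPM in inducible HIF-1α. The hypoxia-induced gene Ndrg1 stood at 53.4 and 54.1 CPM against 139.9 and 171.6 CPM. Tfrc rose from 662.6 and 521.9 CPM to 2262 and 3168 CPM. The collagen lysyl hydroxylase gene Plod2, named outside the rule, rose from 2.61 and 2.58 CPM to 12.3 and 11.3 CPM. The heme oxygenase gene Hmox1 fell from 21.8 and 21.9 CPM to 2.21 and 0.748 CPM. In these libraries Bnip3 and Ndrg1 passed the test, but most genes of the list did not. The feedback genes Egln1 and Egln3 were among those not called, with log2 fold changes of 0.0035 and -0.21. The difference between Bnip3 or Ndrg1 and the feedback genes was not tested. With either wild-type library left out, almost no gene of the whole table was called. Those fits therefore cannot set the pathway genes apart from other genes.

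**Figure D5:**
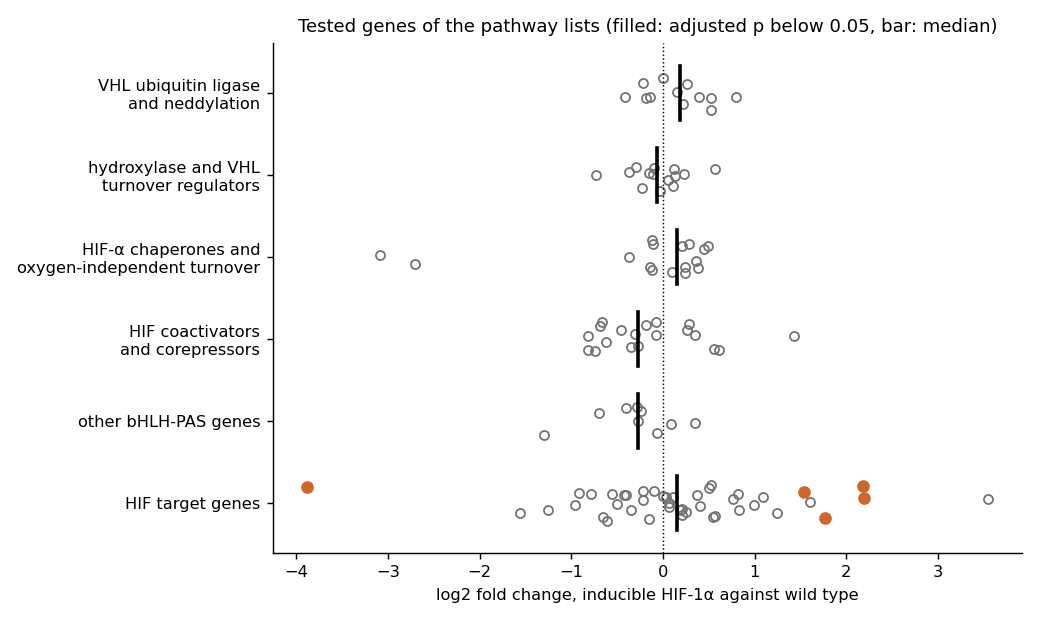
Log2 fold change of inducible HIF-1α against wild type for the tested genes of the 6 pathway lists (points; vertical spread within a list has no meaning), with the median of each list as a bar; filled points have an adjusted p below 0.05. The 5 filled points, 4 higher and 1 lower, are all in the HIF target list, whose median was 0.15.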

How the data were processed

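RNA was measured in CD117-selected bone marrow cells, 2 wild-type and 2 inducible HIF-1α libraries. The authors deposited raw counts per Entrez gene; per the submitters' processing notes, bcl2fastq, CASAVA 1.8, TopHat and edgeR were used with build mm10. The sources used here name no counting tool, annotation or strand setting. Of 24415 identifiers, 24334 matched a symbol in RefSeq's GRCm38.p6 table; the other 81 were kept in the tests. Of the 10 genes, Hif1a shares 330 exonic bases with the antisense gene Gm15283 and 148 with Gm49321, Arnt2 shares 214 with the antisense gene Gm30873, and Egln2 shares 11 with the antisense gene Cyp2t4 (GENCODE M21), so such reads cannot be told apart.

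Counts were filtered with filterByExpr (minimum count 10), scaled by TMM and tested with edgeR 4.0.16 (R 4.3.3; glmQLFit, glmQLFTest) on all 4 libraries, with no block. P-values were adjusted by Benjamini-Hochberg over 14043 genes, with a threshold of 0.05. CPM use TMM library sizes; SEs of fold changes (log2) are derived from F. The test was checked on simulated counts. Alternatives were 3 other scalings, 2 other filters, DESeq2 1.42.0, limma-voom (limma 3.58.1), a replicate block and leaving out each library. The replicates were not copies: they differed by a chi-square per degree of freedom of 23.3 in wild type and 119 in inducible HIF-1α.

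The genes and lists were chosen with earlier results of these data known. Named were the 10 genes; in each pathway list up to 4 called genes with the smallest p, or the 1 with the smallest p where none was called; and the 3 genes nearest in profile to each α subunit, of which 1 is not reported here.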

Additional observations from a re-analysis of the deposited data

How the results depend on the processing

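Of 108 fold changes of the 9 genes under 12 alternatives, 92 kept their direction and their side of the threshold, 7 passed it where they had not, and 9 changed sign. The sign changes were in Egln1, Egln2 and Hif1an, whose values were near 0, and once in Egln3. With at least 1 CPM in all 4 libraries, Egln1 was -0.020 and Egln2 -0.0089. Leaving out 1 library at a time gave -0.078 to 0.11 for Egln1, -0.040 to 0.091 for Egln2, -0.56 to 0.098 for Egln3, -0.15 to 0.26 for Hif1an, -0.74 to -0.14 for Epas1 and -0.63 to -0.13 for Hif1a.

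Leaving out 1 library gave 0 to 1798 genes called higher and 0 to 2871 lower over all genes (16 and 141 with all 4), 0 to 1 and 0 to 2 of the 10 genes, and 0 to 29 and 0 to 26 of the other pathway genes (4 and 1). Without wild-type replicate 2 edgeR called 0 genes, with 703 at an unadjusted p under 0.05. Total-count scaling gave 85 genes lower. No filter gave 119 higher and 628 lower, with 1 of the 10 genes (Hif3a) higher and 4 pathway genes lower. The filter of 1 CPM in all libraries gave 9 and 69, with 0 pathway genes lower. DESeq2 gave 172 and 799, with 1 of the 10 genes, 9 pathway genes higher and 5 lower, and limma-voom gave 2 pathway genes lower. The cause was not tested. Counts of calls without an inducible HIF-1α library rest on the smaller spread of the wild-type pair alone.

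The replicate block gave 34 genes higher and 347 lower, with 1 of the 10 genes higher (Hif3a, 2.06, adjusted p = 0.0310 by edgeR's quasi-likelihood test) and 3 pathway genes lower. The labels do not say whether same-numbered libraries share anything beyond the number. The correlation of their deviations over 14043 genes was 0.078, and so few libraries cannot decide whether they were paired. When counts were not divided by length, the genotype differences in the shares of Hif3a, Hif1a and Egln1 moved by less than the larger group SD. The shares themselves could move by more: the mean Egln1 share in wild type was 65.5% in place of 58.9%. Arnt2, with 3 counts in wild type and 1 in inducible HIF-1α, is limited by depth.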
